A study of Mus musculus with 8 samples.

Results

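The genes described here are 40 genes of DNA replication and mitosis, chosen by name from the read count table of mouse bone marrow-derived macrophages (BMDMs). All 40 were found, each as 1 of the 54532 genes in the table, and all 40 were among the 12911 genes with enough counts to test. RNA was sequenced in 4 libraries from wild type (WT) and 4 from Gsdmd-/- mice, which lack Gasdermin D, the protein whose cleaved fragment opens pores in the membrane during pyroptosis. The WT mice were female C57BL/6J of 6 to 8 weeks, and the age and sex of the Gsdmd-/- mice, which were a gift, are not given in the sources used here. Bone marrow cells of both genotypes were cultured for 6 days with M-CSF, the growth factor that turns marrow progenitors into macrophages and also drives their division, and received no further treatment. Whether the 4 libraries of a genotype came from separate mice or cultures is not stated, so the spread between them may be technical and p-values measure only that spread.

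A cell that divides first copies its DNA and then separates the copies. Before S phase, Cdc6 helps to load the hexamer of Mcm2 to Mcm7, the replicative helicase, onto the origins. Mcm10 and the GINS complex then activate the helicase, and Pcna forms the clamp that holds the polymerases on DNA. These genes and those for deoxynucleotide supply are induced at the G1/S transition, largely by E2F transcription factors. The genes of mitosis are induced later, in G2, through CCAAT boxes bound by NF-Y and the cell cycle genes homology region (CHR) bound by the MuvB complexes. They encode cyclins, kinases, spindle motors and kinetochore proteins. Resting macrophages have mostly left the cell cycle, while those grown in M-CSF still divide in part. By these roles, 17 of the 40 genes were taken as G1/S genes and 23 as G2/M genes. In RNA from whole cultures, fewer dividing cells and less RNA per dividing cell cannot be told apart.

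The promoters of 2 genes per phase are shown first, chosen for a match to a motif of that phase and a large spread among the WT libraries. That they hold these motifs follows from the choice. RefSeq windows on GRCm38.p6, from 250 bases before to 50 bases after each start, were found for 33 of the 40 genes (35 windows, with 2 each for Mcm7 and Prc1, those of Prc1 overlapping). In each phase, the 2 genes with the largest ratio of the highest to the lowest WT library and with an E2F (G1/S) or CHR (G2/M) match before the start were chosen, after their values had been seen. The 250 bases before the start are printed 5′ to 3′ on the strand of the gene, and capitals mark each match to an E2F motif, a CHR or a CCAAT box. The windows lie at chr12:24708004-24708253 (plus strand, Rrm2), chr11:98907901-98908150 (plus strand, Cdc6), chr2:164769679-164769928 (plus strand, Ube2c) and chr4:118437344-118437593 (minus strand, Cdc20). Each is upstream of the RefSeq start. That of Cdc6 lies inside the gene as annotated in GENCODE, which begins at chr11:98907801, so it is not upstream of that start.
Rrm2: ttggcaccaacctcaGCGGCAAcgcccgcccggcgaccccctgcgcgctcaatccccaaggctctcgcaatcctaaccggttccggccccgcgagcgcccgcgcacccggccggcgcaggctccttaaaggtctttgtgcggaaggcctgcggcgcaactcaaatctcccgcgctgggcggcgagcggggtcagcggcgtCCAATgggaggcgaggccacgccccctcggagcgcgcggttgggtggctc
Cdc6: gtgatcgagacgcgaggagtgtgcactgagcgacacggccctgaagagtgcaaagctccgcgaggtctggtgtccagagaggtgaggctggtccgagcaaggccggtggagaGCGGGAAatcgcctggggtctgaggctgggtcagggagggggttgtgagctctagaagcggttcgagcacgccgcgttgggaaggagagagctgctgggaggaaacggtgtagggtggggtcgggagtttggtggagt
Ube2c: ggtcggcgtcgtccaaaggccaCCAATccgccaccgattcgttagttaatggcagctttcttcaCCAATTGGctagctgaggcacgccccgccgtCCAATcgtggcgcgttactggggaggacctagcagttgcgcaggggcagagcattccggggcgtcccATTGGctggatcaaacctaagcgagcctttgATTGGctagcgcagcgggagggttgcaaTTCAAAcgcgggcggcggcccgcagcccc
Cdc20: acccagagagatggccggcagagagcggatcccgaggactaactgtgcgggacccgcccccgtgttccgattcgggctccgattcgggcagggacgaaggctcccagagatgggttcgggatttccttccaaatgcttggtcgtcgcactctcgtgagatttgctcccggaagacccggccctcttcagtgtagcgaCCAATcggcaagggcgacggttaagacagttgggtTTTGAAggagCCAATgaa

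Rrm2 held 1 E2F match and 1 CCAAT box, and Cdc6 held 1 E2F match. Ube2c held 1 CHR with 23 bases between it and the start, and 6 CCAAT matches further upstream, of which the run CCAATTGG gave 1 on each strand. Cdc20 held 1 CHR with 12 bases between it and the start, flanked by 2 CCAAT boxes.

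Over the whole windows, E2F motifs were searched on both strands as TTGGCGC and as TTCCCGC and with other central bases as TTCGCGC and as TTGCCGC. They were found in 8 of 15 G1/S windows (53.3%) and in 3 of 20 G2/M windows (15%), beside 9.57% of all 32851 windows and 16.5% of those of the genes tested. The most were in Mcm6, with 5. A CHR (TTTGAA or TTCGAA, both strands) was found in 2 of 15 G1/S windows (13.3%) and in 16 of 20 G2/M windows (80%), beside 19.2% of all windows and 14.2% of those of the genes tested. Top2a held 4 of them, and Birc5, Cenpe, Nusap1 and Ccnb1 were without. CCAAT (both strands) was found in 10 of 15 G1/S windows (66.7%) and 18 of 20 G2/M windows (90%), beside 37.4% of all windows and 37.8% of those of the genes tested. A match to these letters is a description of the sequence and does not show that a factor binds there.

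**Figure D1:**
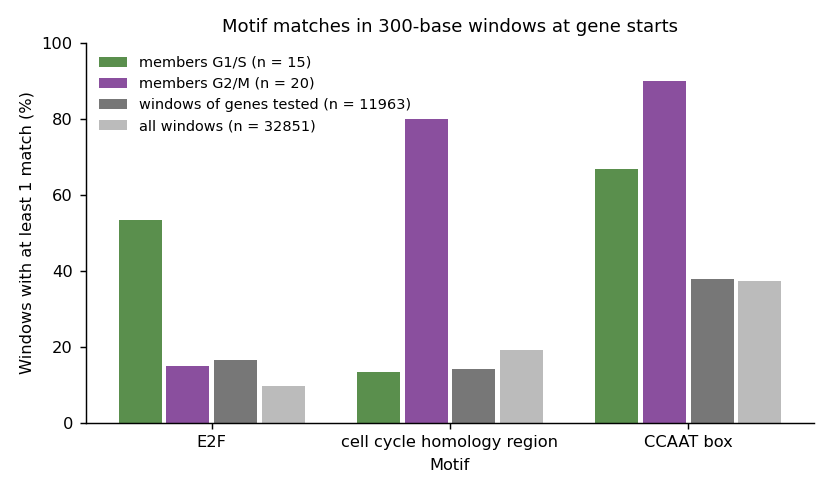
Bars give the percent of promoter windows with at least 1 match to each motif (x axis), in the G1/S and G2/M genes, in the genes tested and in all RefSeq windows. E2F motifs were in 53.3% of G1/S and 15% of G2/M windows, and the CHR in 13.3% of G1/S and 80% of G2/M windows.

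The libraries were of like depth, with between 14935114 and 16794810 counts each, and 3 counts, the limit that a count of 0 allows, were 0.177 to 0.199 CPM (counts per 1000000 counts of the library). Intervals and limits of this kind cover counting error only. The targeted gene, Gsdmd, had a mean of 75.3 ± 14.1 CPM in WT libraries and of 16.2 ± 1.56 CPM in Gsdmd-/- libraries (SD, n = 4 each), with no overlap (log2 fold change -2.22, adjusted p = 4.67e-05, edgeR quasi-likelihood test). Macrophage markers had counts in all libraries, though 8 of the 10 were lower in WT 2 and WT 3 than in WT 1 and WT 4, and Aif1 was near the limit, at 0.183 to 3.16 CPM. Csf1r, the receptor for M-CSF, lay between 938 and 1311 CPM, and Adgre1, which encodes F4/80, between 242 and 326 CPM. WT 2 and WT 3 stood apart from the other 6 libraries in part of the genes, so the genotype comparison of the 40 genes is given with and without them. They also had the largest shares of mitochondrial reads (2.52% and 2.53%). WT 1 and WT 4 had the smallest (1.95% and 1.67%), and the Gsdmd-/- libraries lay between the WT pairs (2.16% to 2.34%).

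All 40 genes were expressed, at very different levels. Per kilobase of exon (CPM per kilobase, or FPKM), Pcna was far ahead with a mean of 88.0 FPKM over the 8 libraries, followed by Mcm3 with 12.9 and Mcm6 with 11.4 FPKM, and Cenpf was lowest with 0.163 FPKM. The lowest read count of any of the 40 genes was 17, for Cdc20 in WT 1. In sum, the 40 genes took 672, 912, 963 and 701 CPM in WT 1 to WT 4, and 802, 732, 887 and 839 CPM in Gsdmd-/- 1 to 4. The highest and the lowest sum were both in WT, and the 4 Gsdmd-/- libraries lay between them.

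**Figure D2:**
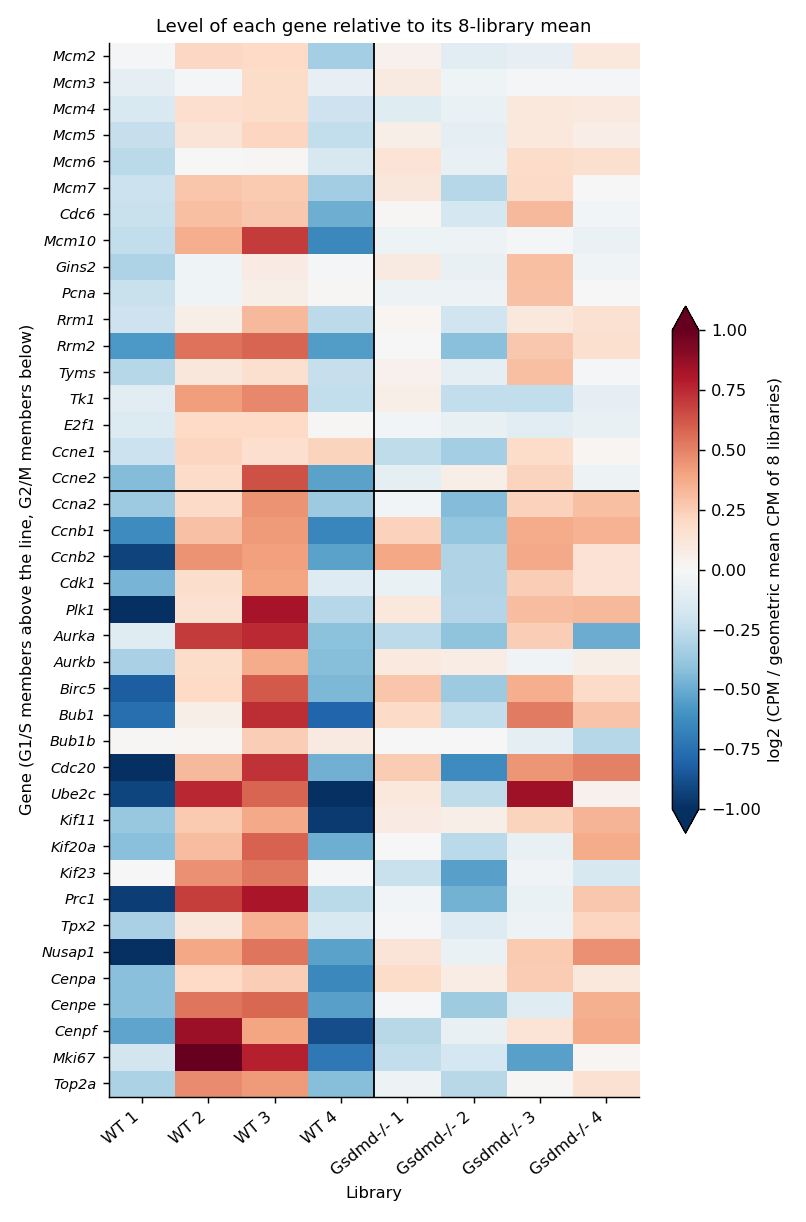
Each row is 1 gene and each column 1 library, and colour gives the log2 ratio of its CPM to the geometric mean of the 8 libraries, with G1/S genes above the line and G2/M genes below. WT 2 and WT 3 are mostly red and WT 1 and WT 4 mostly blue, while the Gsdmd-/- libraries are paler.

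The first question was whether these genes differ between the genotypes. None of the 40 was higher or lower in Gsdmd-/- at an adjusted p under 0.05 in the edgeR quasi-likelihood test, where 0.349% of all genes tested were called (0.139% higher and 0.209% lower), and none by DESeq2, limma voom or the exact test of edgeR. At the cutoff the study used (a log2 fold change of 0.5 or more in either direction with an unadjusted p under 0.05), 0 of 40 were called beside 4.83% of all genes (1.54% higher and 3.28% lower). At an unadjusted p under 0.05 alone, 1 gene of 40 (2.5%) was called, beside 12.0% of all genes. The median log2 fold change of the 40 genes was -0.0021, and that of all genes tested -0.0068. With 1 library left out, the median of the 40 genes ran from -0.075 without WT 1, with 30 genes below 0, to 0.138 without WT 3, with 31 above 0. Fold changes ran from -0.62 to 0.26, and 17 of the 40 lay within 0.1 of 0 and are given no direction.

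The 1 gene was Kif23 (ENSMUSG00000032254, chr9:61915905-61946774, minus strand, GRCm38), the mitotic kinesin of the central spindle, which is needed for the last step of cell division. It was measured at 11.3, 15.5, 16.2 and 11.2 CPM in WT 1 to WT 4, and at 9.66, 7.75, 11.0 and 10.1 CPM in Gsdmd-/- 1 to 4. All 4 Gsdmd-/- libraries were below all 4 WT libraries, though Gsdmd-/- 3 lay close to WT 4. The log2 fold change was -0.49 ± 0.167 (SE; 95% interval -0.86 to -0.12), and the adjusted p in the edgeR quasi-likelihood test was 0.289, from 0.0141 before adjustment. The log2 fold change was -0.23 (adjusted p = 0.632) without WT 2 and WT 3, and -0.72 (adjusted p = 0.00637) without WT 1 and WT 4. Bub1b, a kinase of the spindle assembly checkpoint, was the other gene whose groups did not overlap, and together they are 2 of 40 genes, both lower, beside 7.60% of all genes tested in either direction and 4.12% that were lower. Its levels were 13.1, 13.2, 15.5 and 13.9 CPM in WT, and 13.0, 13.0, 12.2 and 10.7 CPM in Gsdmd-/-. The gap between the groups was small next to the spread, and the log2 fold change was -0.18 (95% interval -0.43 to 0.067, adjusted p = 0.567).

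The precision differed between the phases. For the G1/S genes, the half-width of the 95% interval had a median of 0.306 on the log2 scale, and for the G2/M genes one of 0.615. The interval lay within 0.5 of 0 for 15 of the 40 genes, of which 11 were G1/S and 4 G2/M genes, and within 1 of 0 for 34. For the other 6 genes, a difference of 2-fold lies inside the interval. A test that does not pass therefore does not show that these genes are alike in both genotypes.

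**Figure D3:**
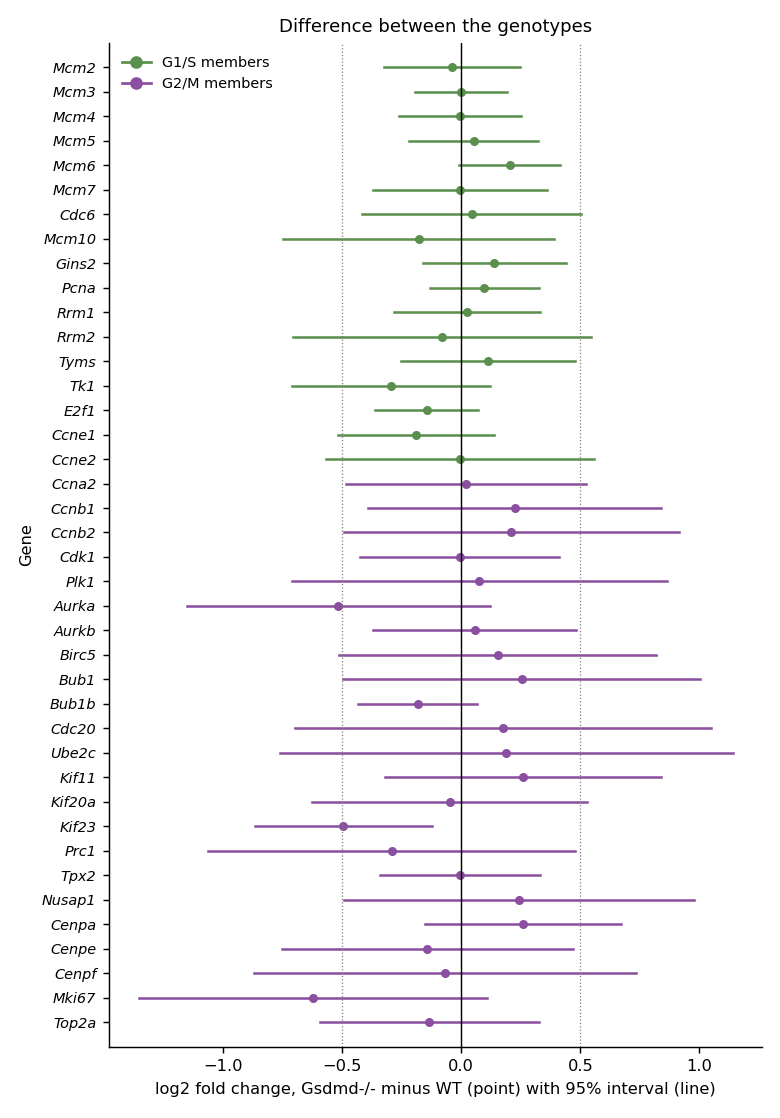
Points give the log2 fold change of each gene, Gsdmd-/- minus WT, and lines the 95% interval from the edgeR quasi-likelihood fit (n = 4 per genotype), with dotted lines at 0.5 in each direction. The interval of Kif23, from -0.86 to -0.12, is the 1 interval that leaves out 0.

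Among the 7 genes for licensing and helicase loading, the log2 fold change of 6 was between -0.038 and 0.053, and the spread in WT differed from gene to gene. Cdc6, the loading factor, varied most. It was 4.69, 6.72, 6.60 and 3.89 CPM in WT and 5.51, 4.85, 6.85 and 5.37 CPM in Gsdmd-/- libraries. Mcm7 was 21.8, 30.7, 30.4 and 19.9 CPM in WT and 20.8 to 28.9 CPM in Gsdmd-/- libraries, and Mcm2 was 27.2, 31.7, 31.6 and 21.7 CPM in WT and 25.4 to 29.6 CPM in Gsdmd-/- libraries. In all 7 genes WT 2 and WT 3 were above WT 1 and WT 4. Mcm3, a subunit of the helicase, varied least and was 45.4, 47.7, 54.9 and 45.6 CPM in WT and 51.3, 46.8, 47.6 and 47.8 CPM in Gsdmd-/- libraries, with a 95% interval for the log2 fold change of -0.19 to 0.19. Mcm6 came nearest to a difference. It was 43.9, 52.8, 53.3 and 47.3 CPM in WT, and 58.1, 50.04, 60.1 and 59.0 CPM in Gsdmd-/- libraries. Gsdmd-/- 2 fell among the WT values and the other 3 above them (log2 fold change 0.20 ± 0.0959 SE, adjusted p = 0.444).

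Mcm10, Gins2 and Pcna act on the loaded helicase and at the fork. Mcm10 was 4.81, 7.33, 9.22 and 3.65 CPM in WT 1 to WT 4. In the Gsdmd-/- libraries it was 5.51, 5.50, 5.65 and 5.44 CPM, all within the WT range and the narrowest of the 40 genes, with 82 to 93 reads each. Pcna (chr2:132249162-132253314, minus strand) was 180, 205, 219 and 213 CPM in WT and 203, 203, 257 and 210.5 CPM in Gsdmd-/- libraries. The groups overlapped, and Gsdmd-/- 3 was the highest of all 8. Of the exon length of Gins2, 67.3% overlaps exons of Gse1 on the other strand, and whether reads were counted by strand is not stated, so its values are uncertain.

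Rrm1 and Rrm2 encode the subunits of ribonucleotide reductase, which makes deoxynucleotides, and Tyms and Tk1 supply thymidylate. Rrm2, the subunit whose level follows S phase (chr12:24708241-24714146, plus strand), was 14.6, 31.7, 32.6 and 14.7 CPM in WT and 21.8, 16.3, 26.1 and 24.3 CPM in Gsdmd-/- libraries. WT 2 and WT 3 were above and WT 1 and WT 4 below all Gsdmd-/- libraries, and the means of 23.4 ± 10.1 and 22.1 ± 4.29 CPM (SD, n = 4) were close. Rrm1 varied less, from 34.7 to 52.0 CPM in WT and from 36.1 to 46.2 CPM in Gsdmd-/- libraries. Tk1 was 6.27 to 10.4 CPM in WT and 6.27 to 7.76 CPM in Gsdmd-/- libraries (log2 fold change -0.30, adjusted p = 0.579). Its log2 fold change ran from -0.41 to -0.18 with 1 library left out. Tyms was 4.44 to 6.05 CPM in WT and 5.09 to 6.66 CPM in Gsdmd-/- libraries.

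E2f1 and the E-type cyclins Ccne1 and Ccne2 drive entry into S phase. E2f1 was 27.5, 34.8, 34.9 and 30.6 CPM in WT and between 28.2 and 29.7 CPM in Gsdmd-/- libraries, all inside the WT range. Ccne1 was 15.2, 20.4, 19.8 and 20.6 CPM in WT and 14.8, 14.0, 20.04 and 17.8 CPM in Gsdmd-/- libraries. Ccne2 was 3.65, 5.62, 7.69 and 3.41 CPM in WT and 4.62, 5.15, 5.77 and 4.78 CPM in Gsdmd-/- libraries. WT 4 lay with WT 2 and WT 3 for Ccne1 and with WT 1 for Ccne2.

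In mitosis, Cdk1 with cyclin A (Ccna2) and cyclin B (Ccnb1, Ccnb2) forms the kinase that starts it. Cdk1 was 13.6, 21.1, 24.6 and 17.2 CPM in WT and 17.9, 15.2, 22.3 and 20.8 CPM in Gsdmd-/- libraries. Ccnb1 was 4.50, 8.55, 9.34 and 4.44 CPM in WT and 8.17, 5.32, 9.01 and 8.89 CPM in Gsdmd-/- libraries. In both genes WT 3 was the highest of the 8 libraries, and Gsdmd-/- 2 the lowest of its genotype. Ccnb2 and Ccna2 ranged from 1.76 to 4.58 CPM and from 5.78 to 10.1 CPM in WT, and the adjusted p of these 4 genes was between 0.792 and 0.994.

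Plk1 and the Aurora kinases Aurka and Aurkb run the steps of mitosis, Aurkb as part of the passenger complex with Birc5 (survivin). Plk1 had the largest ratio of any of the 40 genes between WT libraries, at 1.34, 3.30, 5.25 and 2.43 CPM (22 to 86 reads), a ratio of 3.92 between WT 3 and WT 1. In Gsdmd-/- libraries it was 3.20, 2.42, 3.68 and 3.71 CPM. Aurka, the kinase of the centrosome, was 4.38, 7.76, 8.0 and 3.59 CPM in WT and 3.97, 3.61, 5.65 and 3.38 CPM in Gsdmd-/- libraries (log2 fold change -0.51 ± 0.286 SE, adjusted p = 0.529). Here the WT 1 and WT 4 values were like those of the Gsdmd-/- libraries, and WT 2 and WT 3 lay above. The log2 fold change of Aurka ran from -0.70 to -0.34 with 1 library left out. Aurkb stayed between 5.65 and 6.22 CPM in Gsdmd-/- libraries, within the WT range of 4.32 to 7.51 CPM.

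Bub1 and Bub1b hold the spindle checkpoint, and Cdc20 and Ube2c act in the anaphase-promoting complex that ends it. Ube2c, the E2 enzyme of that complex (chr2:164769898-164778822, plus strand), was 2.01, 6.42, 5.68 and 1.70 CPM in WT and 4.09, 3.19, 6.85 and 3.91 CPM in Gsdmd-/- libraries. Gsdmd-/- 3 was the highest of the 8 libraries, and WT 1 and WT 4 the lowest. Cdc20, its activator (chr4:118432901-118437352, minus strand), was 1.03, 2.87, 3.79 and 1.64 CPM in WT and 2.72, 1.48, 3.11 and 3.25 CPM in Gsdmd-/- libraries, on 17 to 62 reads. These 2 genes had the widest intervals for the genotype, -0.76 to 1.14 for Ube2c and -0.70 to 1.05 for Cdc20 on the log2 scale. Of the exon length of Ube2c, 22.8% overlaps Tnnc2 on the other strand.

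Of the spindle motors and microtubule proteins other than Kif23, Kif11 is the motor that drives the poles apart, Kif20a acts at the central spindle, Prc1 bundles its microtubules, and Tpx2 and Nusap1 help to build the spindle. Prc1 was 2.86, 8.86, 9.71 and 4.56 CPM in WT and 5.39, 3.96, 5.26 and 6.63 CPM in Gsdmd-/- libraries. Nusap1 was 1.76, 5.19, 5.74 and 2.74 CPM in WT and 4.32, 3.79, 4.76 and 5.44 CPM in Gsdmd-/- libraries. For Prc1, WT 2 and WT 3 were above all Gsdmd-/- libraries and WT 1 below them, and for Nusap1, WT 1 and WT 4 were below them and Gsdmd-/- 4 lay among WT 2 and WT 3. Kif11, Kif20a and Tpx2 ranged from 2.86 to 7.21, from 3.77 to 7.94 and from 14.4 to 22.9 CPM in WT, with every Gsdmd-/- library inside. Of the exon length of Kif20a, 29.3% overlaps Cdc23 on the other strand.

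Cenpa, the histone variant that marks centromeres, was 24.9, 38.3, 39.5 and 21.4 CPM in WT and 37.9, 35.0, 39.7 and 35.8 CPM in Gsdmd-/- libraries. The Gsdmd-/- libraries were close to WT 2 and WT 3, and WT 1 and WT 4 lay well below (log2 fold change 0.26 ± 0.185 SE, adjusted p = 0.629). With 1 library left out, the log2 fold change of Cenpa ran from 0.12 to 0.40. The kinetochore genes Cenpe and Cenpf ranged from 5.29 to 11.5 and from 1.28 to 4.28 CPM in WT, and all Gsdmd-/- libraries fell within these ranges.

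Mki67, which encodes the proliferation marker Ki-67 (ENSMUSG00000031004, chr7:135689784-135716361, minus strand), had the largest fold change of the 40 genes in the comparison of all 8 libraries. It was 22.9, 54.0, 44.4 and 15.8 CPM in WT 1 to WT 4 and 21.9, 23.01, 17.8 and 26.3 CPM in Gsdmd-/- 1 to 4. WT 2 and WT 3 were far above the other 6 libraries, among which the genotypes overlapped. The means were 34.3 ± 17.9 CPM in WT and 22.3 ± 3.51 CPM in Gsdmd-/- libraries (SD, n = 4), and the log2 fold change of -0.62 ± 0.329 (SE; 95% interval -1.35 to 0.11) had an adjusted p of 0.503. It ran from -0.86 to -0.32 with 1 library left out, and at -0.32, without WT 2, it was smaller than that of Kif23 (-0.43). Top2a, the topoisomerase that untangles chromosomes, was 22.5, 38.9, 37.6 and 20.9 CPM in WT and 27.0, 23.1, 28.2 and 31.0 CPM in Gsdmd-/- libraries. Its Gsdmd-/- values fell between the WT pairs.

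**Figure D4:**
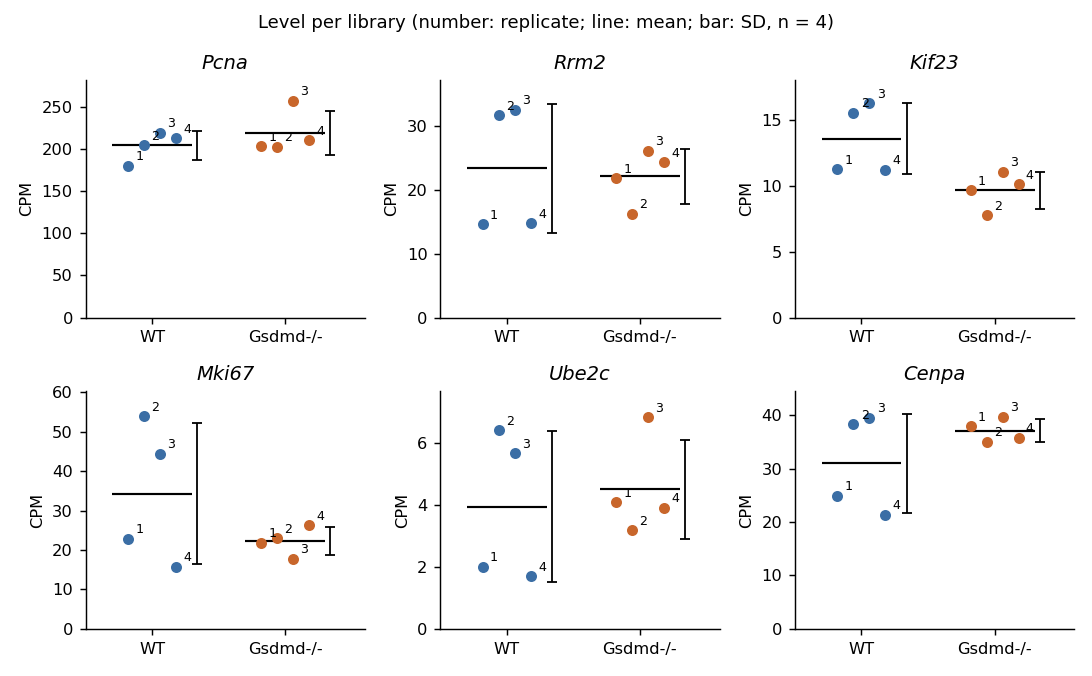
Points give the CPM of 6 of the genes in each library, with the replicate number beside them, lines the mean and bars the SD (n = 4). In Rrm2, Ube2c, Mki67 and Cenpa the WT libraries form a high pair (2 and 3) and a low pair (1 and 4). Pcna runs from 180 to 219 CPM in WT and is highest in Gsdmd-/- 3 (257 CPM), and Kif23 has no overlap between genotypes.

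The second question was how far these genes vary among libraries of 1 genotype. The mean log2 CPM of the 23 G2/M genes was 2.31, 3.22, 3.36 and 2.37 in WT 1 to WT 4, and 2.88, 2.60, 3.004 and 3.02 in Gsdmd-/- 1 to 4. Its SD was 0.551 in WT and 0.194 in Gsdmd-/- libraries (n = 4 each), the latter 0.0764 without Gsdmd-/- 2. For the 17 G1/S genes, the mean log2 CPM was 4.09, 4.49, 4.59 and 4.08 in WT and 4.32, 4.18, 4.44 and 4.34 in Gsdmd-/- libraries. The SD was 0.268 in WT and 0.107 in Gsdmd-/- libraries, the latter 0.0639 without Gsdmd-/- 2. Both phases placed the WT libraries in a high and a low pair, with the step between the pairs larger for mitosis than for replication.

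The same order recurred gene by gene. Both WT 2 and WT 3 were above both WT 1 and WT 4 in 36 of the 40 genes (90%), beside 29.4% of all genes tested, and below them in 0, beside 28.7%. The 4 exceptions were Gins2, Pcna, Ccne1 and Bub1b, in which the pairs were mixed. This split of the WT libraries was seen in the data and not given by the labels, and it is a description. WT 3 was the highest of the 8 libraries in 26 genes and WT 2 in 6, Gsdmd-/- 3 was highest in 7 and WT 4 in 1. WT 4 was the lowest in 20 genes and WT 1 in 15, while Gsdmd-/- 2 was lowest in 3 and Gsdmd-/- 4 in 2. WT 1 and WT 4 were the 2 lowest of the 8 in 24 genes (60%), beside 7.79% of all genes tested, and WT 2 and WT 3 the 2 highest in 17 (42.5%), beside 17.9%.

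The Gsdmd-/- libraries were more alike. The SD of log2 CPM was larger in WT than in Gsdmd-/- for 36 of the 40 genes (90%), beside 71.7% of all genes tested. Its median was 0.422 in WT and 0.207 in Gsdmd-/- libraries for the 40 genes, and 0.236 and 0.157 for all genes tested. The ratio of the highest to the lowest library had a median of 2.23 in WT and 1.56 in Gsdmd-/- for the G2/M genes, and of 1.37 and 1.25 for the G1/S genes, beside 1.44 and 1.28 for all genes tested. The median SD of log2 CPM in WT was 0.236 for the G1/S genes, as for all genes tested, and 0.592 for the G2/M genes. All 4 Gsdmd-/- libraries lay inside the WT range for 28 of the 40 genes (70%), beside 33.1% of all genes tested. Counting error alone gives a ratio of the variance to the mean of scaled counts near 1, and the median ratio was 12.9 in WT and 3.25 in Gsdmd-/- libraries for the 40 genes, beside 6.69 and 3.08 for all genes tested. In WT it was 10.5 for the G1/S genes and 14.2 for the G2/M genes.

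**Figure D5:**
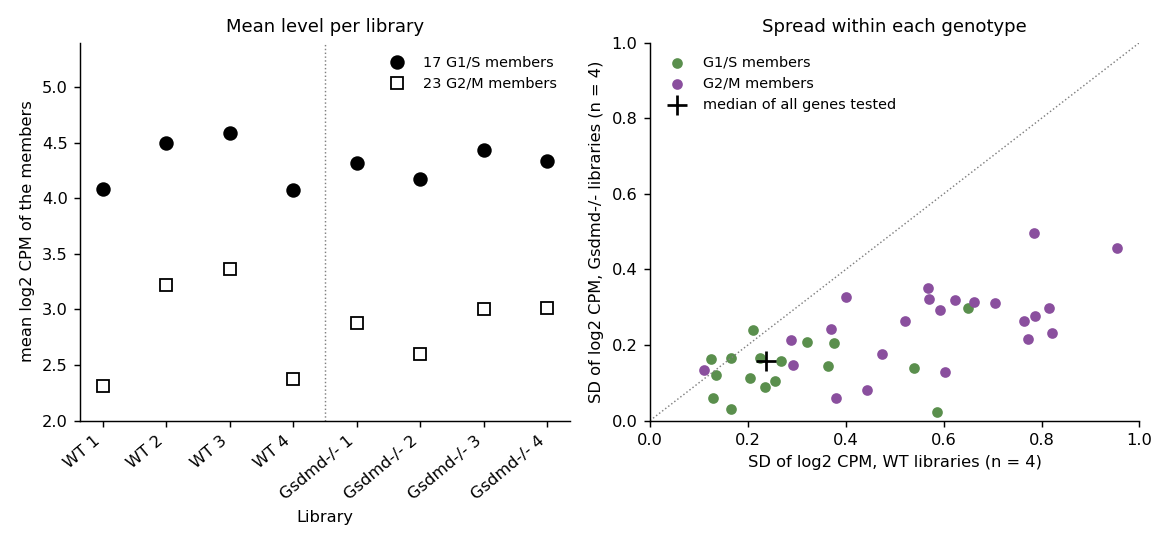
The left panel gives the mean log2 CPM of the 17 G1/S genes (filled circles) and the 23 G2/M genes (open squares) in each library, and the right panel the SD of log2 CPM of each gene in WT (x axis) against Gsdmd-/- (y axis), with a cross at the median of all genes tested. In WT the G2/M mean runs from 2.31 to 3.36 and in Gsdmd-/- from 2.60 to 3.02, and 36 of 40 genes lie below the dotted line of equal SD.

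Since WT 2 and WT 3 were high and WT 1 and WT 4 low, the genotype comparison was repeated without each pair. Without WT 2 and WT 3, the log2 fold change was above 0 for 36 of the 40 genes with a median of 0.35, and 17 genes were higher in Gsdmd-/- at an unadjusted p under 0.05, beside 6.32% of all genes in that direction. At the cutoff of the study 13 were higher, beside 3.05% of all genes. Cenpa alone passed at an adjusted p under 0.05 (log2 fold change 0.68, adjusted p = 0.0230, edgeR quasi-likelihood test), beside 0.399% of all genes. Without WT 1 and WT 4, 37 of the 40 were below 0 with a median of -0.26, and 10 were lower in Gsdmd-/- at an adjusted p under 0.05, beside 11.3% of all genes, and 0 higher, beside 9.37%. Unadjusted, 13 were lower, beside 18.6% of all genes, and 9 were lower at the cutoff, beside 9.84%. Mki67 moved from 0.20 (adjusted p = 0.750) without WT 2 and WT 3 to -1.14 (adjusted p = 4.38e-04) without WT 1 and WT 4. Dropping the high or the low libraries sets the direction by construction, so neither fit stands as a difference between the genotypes. Each leaves 2 WT libraries.

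Genes of the same processes outside the 40 were listed by hand. Of 57 further replication genes, such as the origin recognition complex, polymerases and repair factors, all were tested and 0 passed at an adjusted p under 0.05 in the edgeR quasi-likelihood test or by limma voom, the exact test of edgeR or DESeq2. At an unadjusted p under 0.05, 5 of 57 (8.77%) were called, all higher in Gsdmd-/-, beside 4.74% of all genes that were higher and 12.0% in either direction. The 3 with the largest fold changes at 5 CPM or more were Brca1 (-0.45), which acts in break repair, Dut (0.39), which clears dUTP, and Blm (0.37), a helicase, with adjusted p between 0.347 and 0.595. WT 2 and WT 3 were above WT 1 and WT 4 in 24 of these genes (42.1%) and below in 14 (24.6%), beside 29.4% and 28.7% of all genes tested. Brca1 had both above, at 8.22, 15.2, 14.7 and 5.23 CPM in WT and 6.68 to 8.82 CPM in Gsdmd-/- libraries.

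Of 74 further mitosis genes, 73 were tested and 0 passed at an adjusted p under 0.05 by any of these 4 tests, with 1 higher and 2 lower at an unadjusted p under 0.05 in the edgeR quasi-likelihood test (4.11%, beside 12.0% of all genes). The WT split of the 40 genes was found here too, with WT 2 and WT 3 above WT 1 and WT 4 in 62 genes (84.9%) and below in 0, beside 29.4% and 28.7% of all genes tested. The 3 genes named by size were Cdca3 (0.48), Gtse1 (-0.38) and Kntc1 (-0.23), with adjusted p between 0.354 and 0.873. Kntc1, a kinetochore gene, was 2.98, 9.96, 7.39 and 1.95 CPM in WT and 3.996 to 5.90 CPM in Gsdmd-/- libraries. Sgo2a, which protects cohesion at centromeres, and Dlgap5, a spindle protein, were the 2 genes of 73 at the cutoff of the study, 1 in each direction (beside 1.54% of all genes that were higher and 3.28% lower), and were chosen after their values were seen. Sgo2a was 0.67, 1.22, 1.10 and 0.67 CPM in WT and 1.54 to 2.45 CPM in Gsdmd-/- libraries (log2 fold change 1.01, adjusted p = 0.226), and Dlgap5 was 3.35 to 6.05 CPM in WT and 2.25 to 3.45 CPM in Gsdmd-/- libraries (-0.61, adjusted p = 0.365).

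Upstream of S phase stand the D-type cyclins, their kinases and the inhibitors of these kinases, of which 15 of 17 listed genes were tested. Myc, a transcription factor that promotes growth, was higher in Gsdmd-/- libraries and was the 1 gene of the 15 to pass at an adjusted p under 0.05, beside 0.139% of all genes that were higher. At an unadjusted p under 0.05, 4 were higher and 2 lower (40%), beside 12.0% of all genes. It was 35.8, 38.9, 37.7 and 33.7 CPM in WT and 51.8, 48.1, 54.7 and 53.3 CPM in Gsdmd-/- libraries, with no overlap (log2 fold change 0.51 ± 0.0827 SE, adjusted p = 0.0361, edgeR quasi-likelihood test). Ccnd2, cyclin D2, did not overlap either, at 26.4, 27.3, 23.9 and 17.4 CPM in WT and 12.7, 15.7, 10.9 and 12.7 CPM in Gsdmd-/- libraries, but missed the threshold (log2 fold change -0.87 ± 0.162 SE, adjusted p = 0.0681). Neither Myc nor Ccnd2 was followed through the other tests and settings. Over all genes tested, 45 were called in this fit, 25 with the replicate block and 14 to 84 with 1 library left out. Ccnd1, cyclin D1, followed the WT split, at 35.7, 80.5, 73.8 and 18.01 CPM in WT and 33.6, 33.9, 28.2 and 37.1 CPM in Gsdmd-/- libraries (adjusted p = 0.545). Cdkn1a, which encodes the inhibitor p21 and was chosen after its values were seen, ran the other way within WT, at 353, 233, 235 and 358 CPM, and was 303 to 350 CPM in Gsdmd-/- libraries.

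Some markers of cell types moved with the same WT split. Among macrophage genes, of which all 10 were tested and whose sum was 19531 to 23519 CPM in Gsdmd-/- libraries, 8 were lower in both WT 2 and WT 3 than in WT 1 and WT 4 (80%) and 2 were higher (20%), beside 28.7% and 29.4% of all genes tested. The sum was 21406, 15468, 17367 and 23600 CPM in WT 1 to WT 4. The markers given here by library were chosen after their values were seen. Of the 8, Cd68 was 820, 414, 424 and 849 CPM in WT, and Fcgr1, an Fc receptor, was 36.2, 7.09, 6.66 and 40.7 CPM. The 2 higher ones were Adgre1 and Mertk, a receptor for uptake of dying cells, which was 141, 250, 212 and 101 CPM. Of 10 progenitor markers 3 were tested, and WT 2 and WT 3 were below WT 1 and WT 4 in 1 (Kit), above them in 1 (Cd34) and mixed in 1 (Gfi1). Kit, the receptor for stem cell factor, was 71.0, 11.4, 10.3 and 60.0 CPM in WT and 46.0 to 66.9 CPM in Gsdmd-/- libraries, so within WT it was low where the replication and mitosis genes were high, while Cd34 varied only from 1.28 to 1.65 CPM in WT. The list of 10 progenitor markers summed to 13.1 to 74.3 CPM in WT and 49.5 to 71.1 CPM in Gsdmd-/- libraries, nearly all from Kit, and Ms4a3 had 0 counts. Of 10 lymphoid markers only Ighm was tested, and it was 0.91, 8.98, 8.73 and 1.03 CPM in WT and 0.46 to 1.54 CPM in Gsdmd-/- libraries. That list summed to 2.13 to 9.29 CPM in WT and 0.46 to 1.84 CPM in Gsdmd-/- libraries, with Trbc1 at 0. Neutrophil markers summed to 662 to 948 CPM in WT and 552 to 679 CPM in Gsdmd-/- libraries, nearly all from Mmp8, with Ly6g and Retnlg at 0 counts, and 3 of the 10 were tested. Of 10 stromal markers 3 were tested, with a sum of 8.28 to 11.8 CPM in WT and 7.87 to 11.2 CPM in Gsdmd-/- libraries and Lum at 0, and none of 10 erythroid markers was tested, with a sum under 1 CPM and Hba-a1, Hba-a2, Hbb-bs and Slc4a1 at 0. The part of any of these cells in the spread of the replication and mitosis genes was not tested.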

How the data were processed

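RNA of untreated BMDMs (4 WT and 4 Gsdmd-/- libraries) had been prepared with Trizol and a TruSeq kit. The authors deposited 1 table of read counts per gene, as whole numbers and not normalized. The submitters' processing notes name the build mm10, and the aligner, counter, annotation and strand setting are not given in the sources used here. Of 54532 genes, 54495 were found by identifier in GENCODE M21 (GRCm38), which gave positions and exon lengths for FPKM. Promoter windows came from RefSeq.

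In edgeR 4.0.16 (R 4.3.3), filterByExpr kept 12911 genes, and library sizes were adjusted with TMM factors. The two-sided quasi-likelihood test had a single term, the genotype, and p-values were adjusted over all genes tested after Benjamini and Hochberg. The 95% interval took the SE from the F statistic. CPM were computed with the TMM factors, and a prior count of 2 was added for log2 CPM. Spread was described by the SD over libraries, with no test. No pair of libraries agreed within sampling noise. Limma voom (limma 3.58.1), the exact test of edgeR, DESeq2 1.42.0, other scalings, filters and thresholds, each library left out, WT 2 and WT 3 left out, and a replicate block were alternatives, and leaving out WT 1 and WT 4 was added after the data had been seen. The tests were tried on simulated data with known changes. The quasi-likelihood test found 84% of log2 fold changes of 1 in size and 97% of those of 2, with 15 false calls among 196. Limma voom made 16 false calls among 196, and the exact test and DESeq2 each made 42 among 229.

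The 40 genes and all lists were chosen with earlier results of these data known. All 40 genes could be named. In the lists of further genes, those with an adjusted p under 0.05 and the 3 with the largest fold change at a mean of 5 CPM or more were named. Marker genes were named where a marker list is described. Any other gene, and the markers given by library, are marked as picked with their values in view. Depth was 14935114 to 16794810 counts per library.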

Additional observations from a re-analysis of the deposited data

Results flagged for a closer look

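In 84 groups of 4 libraries (each gene and the mean level of each phase, in each genotype), 1 library stood far from the other 3 in 2 groups. Independent groups would give about 1 in 20, or 4.2, by chance. Pcna in Gsdmd-/- 3 was the highest of the 4 Gsdmd-/- libraries with 257 CPM, beside 203 to 210.5 CPM in the other 3. Ccne1 in WT 1 was the lowest of the 4 WT libraries with 15.2 CPM, beside 19.8 to 20.6 CPM in the other 3. The groups share the same 8 libraries and are not independent. In 36 of the 40 genes WT 2 and WT 3 were both above WT 1 and WT 4, which makes it harder for 1 WT library to stand alone. The number of such groups is therefore not set against chance, and no explanation was tested.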

How the results depend on the processing

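The result that 0 of the 40 genes passed at an adjusted p under 0.05 was the same with DESeq2, limma voom and the exact test of edgeR, with RLE and upper-quartile scaling, with both filters, with each library left out and the replicate block. It changed when a pair of WT libraries was left out. Without WT 2 and WT 3, 1 of the 40 genes and 1 further mitosis gene were higher at an adjusted p under 0.05, and 13 of the 40 were higher at the cutoff of the study. Without WT 1 and WT 4, 10 of the 40 were lower, 9 were lower at the cutoff, 5 of 57 further replication genes were higher and 7 lower, and 13 of 74 further mitosis genes were lower, where 9.37% of all genes were higher and 11.3% lower at an adjusted p under 0.05. At the cutoff, 1 of the 40 genes (Mki67) was lower with no filter, beside 783 of 25339 genes tested. With at least 10 counts in every library, 1 (Kif23) was lower, beside 358 of 11775. With 1 library left out, 0 to 3 of the 40 were lower (2 without WT 1, 3 without WT 4, 2 without Gsdmd-/- 3, 1 without Gsdmd-/- 4). Beside these, 588 of 13133, 704 of 13117, 351 of 13166 and 400 of 13143 genes tested were lower, in the same order. Of the 40, 0 to 1 were higher (Bub1, without WT 3), where 172 of 13073 genes tested were higher.

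Among the 23 genes at least 0.1 from 0, the log2 fold change turned sign without WT 2 and WT 3 for Mcm10 (0.38), Tk1 (0.050), Aurka (0.055), Prc1 (0.51), Cenpe (0.46), Mki67 (0.20) and Top2a (0.33). It turned without WT 1 and WT 4 for Tyms (-0.073), Ccnb1 (-0.19), Ccnb2 (-0.25), Birc5 (-0.28), Bub1 (-0.23), Cdc20 (-0.34), Ube2c (-0.43), Kif11 (-0.14), Nusap1 (-0.26) and Cenpa (-0.070). With 1 library left out, it ran from -0.36 to 0.070 for Mcm10, -0.042 to 0.44 for Birc5, -0.072 to 0.51 for Cdc20, -0.080 to 0.52 for Ube2c, -0.31 to 0.046 for Cenpe and -0.27 to 0.012 for Top2a. None of these genes passed in the comparison of all 8 libraries.

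The SD between Gsdmd-/- libraries rested on Gsdmd-/- 2. With 1 library left out it ran from 0.0639 to 0.132 for the G1/S mean and from 0.0764 to 0.237 for the G2/M mean, lowest without Gsdmd-/- 2 in both.

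Replicate numbers in the labels are shared by the genotypes, but deviations from the group means of same-numbered libraries had correlations of 0.027, 0.18, 0.041 and -0.20, so the numbers were not taken as pairs. With the replicate block the median log2 fold change of the 40 genes was 0.034, 0 passed at an adjusted p under 0.05, and 25 of all genes did, beside 45 without it. The block changed no call on the 40 genes. Cdc20, Ube2c, Plk1 and Cenpf rested on 17 to 108 reads a library, with a variance of 10.6 to 24.6 times the mean of scaled counts in WT and 1.48 to 9.31 times in Gsdmd-/- libraries.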
